A study of Mus musculus with 11 samples.

Results

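The 65 genes described here encode the factors that start protein synthesis at a messenger RNA and lengthen the growing chain, with their direct inhibitors, kinases and methyltransferases. They were chosen by symbol: names that begin with Eif and a digit, or with Eef1 or Eef2, in the gene annotation of the listed transcripts. Of 79 such symbols, 68 had a listed transcript and 65 reached at least 10 estimated reads in at least 5 of the 11 libraries. The same read rule was met by 12813 of the 22196 genes that had a transcript. The 3 symbols outside the rule were Eif5a2, with 0 to 2 reads a library, and Eif4e1b and Eif2s3y, with 0 reads in all libraries. Just inside it lay Eef1a2, which passed in exactly 5 libraries, and Eef1akmt3, with 10 to 33 reads a library.

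RNA from mouse inguinal mammary glands was compared between 6 libraries titled Knockout (Tsc1-fl/fl; Adipoq-Cre-Tg/+) and 5 titled Wild-Type (Tsc1-fl/fl; Adipoq-Cre-+/+). Both groups carried the floxed Tsc1 alleles, so the Wild-Type glands differed from the Knockout glands by the lack of the Cre transgene. The Adipoq promoter drives Cre in adipocytes, and it does not target the other cells of the gland. All animals ate a normal chow diet and their glands were taken 16 days after delivery. The labels also give the postnatal day as PND16.5, without saying whether it is that of the pups. The labels do not say whether each library came from a separate animal, so p-values measure the spread between these libraries.

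TSC1 restrains the kinase complex mTORC1, which promotes translation. Active mTORC1 phosphorylates the 4E-BP proteins, which then release the cap-binding factor eIF4E, and it acts through S6 kinase on the helicase cofactor eIF4B and on the kinase of elongation factor eEF2. eIF4E, the scaffold eIF4G and the helicase eIF4A form eIF4F, which recruits the small ribosomal subunit. The factors eIF1, eIF1A, eIF2, eIF3 and eIF5 find the start codon, and eEF1 and eEF2 carry each round of elongation. These steps are set largely by phosphorylation and protein binding, which RNA sequencing does not read. The lactating gland makes milk protein in bulk and so relies heavily on this machinery.

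Gene read totals ran from 25758077 to 37820269 a library. The libraries carried secretory epithelium: the summed level of 8 markers, milk protein genes among them, was 340439 to 477324 CPM in the Knockout libraries and 422484 to 593727 in the Wild-Type libraries. CPM here is the count of a gene divided by its library's TMM-scaled total (trimmed mean of M-values), on the usual per-1000000 scale. The 10 adipocyte markers summed to 1594 to 2211 CPM in the Knockout libraries, with a median of 1797, and to 1158 to 1639 in the Wild-Type libraries, with a median of 1432. The groups overlapped in the summed level of every list, and the 3 Y-linked markers were at 0 throughout. The other sums were myoepithelium at 454 to 631 against 363 to 656, macrophage at 65.0 to 119 against 83.2 to 133, endothelium at 67.0 to 105 against 67.9 to 105, and T cell at 1.67 to 9.77 against 1.82 to 34.2. The 8 B cell markers summed to 0.844 to 14.9 and 1.93 to 77.3 CPM, and the 12 skeletal muscle markers to 3.25 to 2798 and 2.20 to 282 CPM. Tsc1 itself measured 8.31 to 11.9 CPM with the Cre transgene and 9.55 to 12.2 CPM without it. Its log2 fold change, Knockout over Wild-Type, was -0.09 with an SE of 0.11 (edgeR adjusted p = 0.772). That gene total is no check of the labels, since it does not separate the floxed exons from the others and cells without Cre keep the gene.

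The helicase genes and the genes of the eIF4E inhibitors are shown first by the stretch of coding sequence that defines them, because Eif4a1 and Eif4a2 are among the genes whose groups did not overlap and the inhibitors are direct targets of mTORC1. For the 3 eIF4A genes the capitals mark the codons of the DEAD box, the ATP-binding motif after which this helicase family is named. The sequences are from the GRCm38 genome with the GENCODE M21 annotation, on the coding strand, 5′ to 3′, in exons.
Eif4a1 (chr11:69668704-69668733, minus strand): ttcgtactgGATGAAGCAGATgaaatgtta
Eif4a2 (chr16:23110254-23110283, plus strand): ttcgttttgGACGAAGCAGATgaaatgttg
Eif4a3 (chr11:119294332-119294361, minus strand): ctggttttgGATGAGGCTGATgaaatgttg
Over these 30 bases Eif4a1 and Eif4a2 differed at 4 positions, Eif4a1 and Eif4a3 at 7, and Eif4a2 and Eif4a3 at 5. Over 1221 aligned coding bases, Eif4a1 and Eif4a2 were 77.7% identical, and neither shared a stretch of 31 bases with any other gene's listed transcripts. By the same measure 54 of the 65 genes shared no such stretch and 7 shared over 10% of theirs. Eif3j1 and Eif3j2 shared 99.7%, and reads of that pair cannot be apportioned with certainty.

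For the eIF4E inhibitors the capitals mark the codons of the eIF4E-binding motif, the segment through which 4E-BP competes with eIF4G for the cap-binding factor.
Eif4ebp1 (chr8:27273328-27273366, plus strand): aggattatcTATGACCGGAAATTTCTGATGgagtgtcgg
Eif4ebp2 (chr10:61435060-61435098, minus strand): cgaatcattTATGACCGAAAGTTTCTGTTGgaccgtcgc
These 2 stretches of 39 bases differed at 10 positions.

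The level of each gene relative to the others was read as TPM, the deposited transcript abundance, which corrects for transcript length and is scaled to a fixed total. The highest were Eef1a1, which delivers aminoacyl-tRNA to the ribosome, at 890 ± 120 TPM (SD, n = 11 libraries), and Eif1, which guards start codon choice, at 332 ± 45.8 TPM. Eif5a, which helps the ribosome through difficult peptide bonds, followed at 282 ± 41.7 TPM. Eef2, the translocation factor, stood at 242 ± 24.4 TPM and Eef1b2, an exchange factor for eEF1A, at 165 ± 17.7 TPM. The mean ± SD ranges of Eif1 and Eif5a overlapped, as did those of Eif5a and Eef2, while Eef1a1 lay far above the rest. With CPM divided by transcript length in kilobases, 4 of these 5 stayed among the first 5, and Eif5a came 7th. Some TPM values lean on very short transcripts. A 231-base Eif5a transcript held 55.8% ± 2.69 (Knockout, SD, n = 6) and 56.1% ± 1.08 (Wild-Type, n = 5) of that gene's TPM. In the Knockout libraries a 162-base transcript annotated for nonsense-mediated decay made up 66.5% ± 6.75 (SD, n = 6) of the Eif5 TPM, and in the Wild-Type libraries 67.7% ± 6.49 (SD, n = 5).

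Levels within a complex were of unlike spread. The 14 eIF3 genes, whose product is the scaffold that holds the small ribosomal subunit, ranged from 3.13 to 39.0 TPM, and the lowest was Eif3j2. The 5 eIF2B genes, which recharge eIF2 with GTP, ranged from 1.91 to 12.1 TPM. The 4 eIF2 kinase genes, which shut down eIF2 under stress, ranged from 1.37 to 4.10 TPM, and Eif2b3 at 1.91 TPM lay within that range. Among the subunits of eIF2, which brings the initiator tRNA, Eif2s2 stood at 50.5 ± 7.12 TPM, Eif2s3x at 12.7 ± 2.40 and Eif2s1 at 10.5 ± 2.22 (SD, n = 11).

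**Figure D1:**
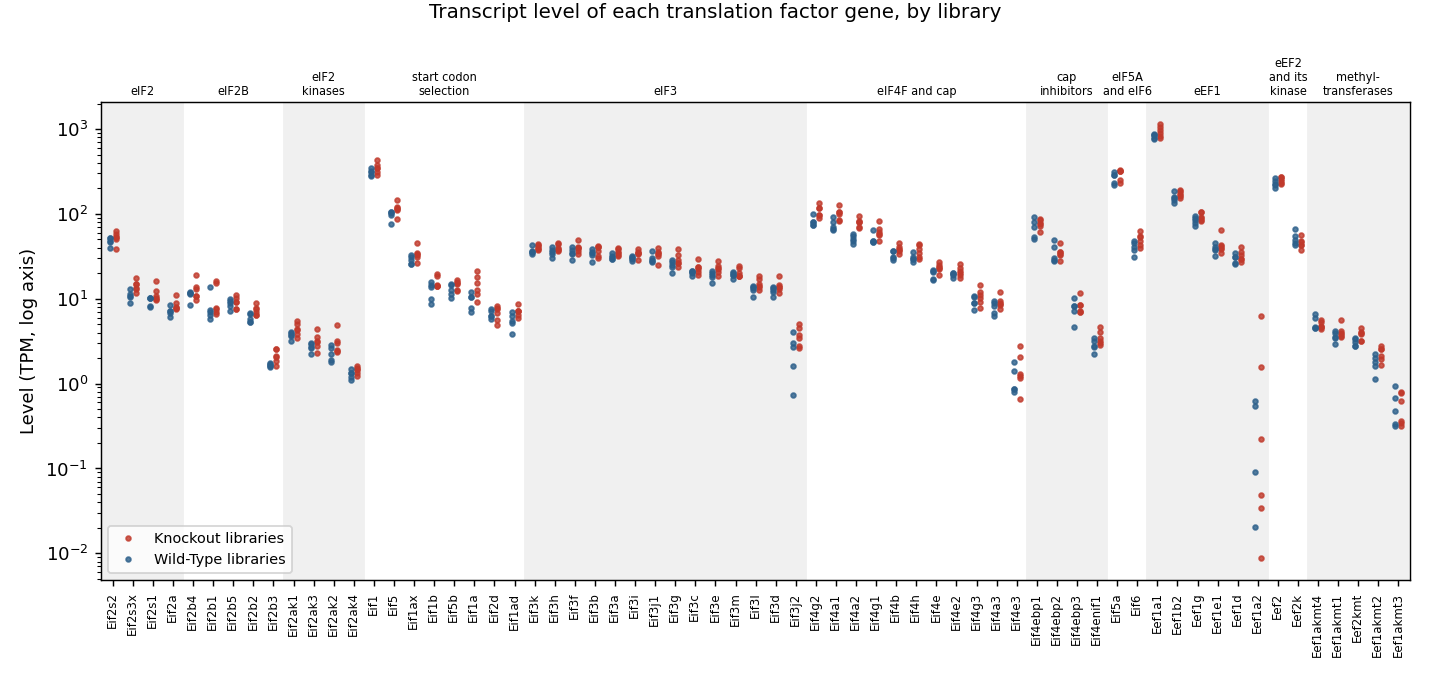
Level of each of the 65 genes in TPM on a log axis, 1 point per library, with Knockout libraries in red and Wild-Type libraries in blue; genes are ordered by role and, within a role, by mean TPM, and 1 Wild-Type library with 0 reads of Eef1a2 is not drawn. Eef1a1 is highest at a mean of 890 TPM, and Eef1a2 is the gene whose libraries are farthest apart.

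The genotype comparison asks how much the transcripts of the machinery differ between glands labelled Knockout and Wild-Type. Over 12716 genes, edgeR's quasi-likelihood test called 7 at an adjusted p (Benjamini-Hochberg) under 0.05, 0.0550% of those tested, and none of the 65 was among them. Without adjustment, 8 of the 65 (12.3%) had an edgeR p under 0.05, beside 12.4% of all genes, which is the background share. Of these, 4 were higher in the Knockout libraries (Eif4a2, Eif4a1, Eif4g2 and Eif1a; background 6.31%) and 4 lower (Eif2d, Eef2k, Eif4e2 and Eef1akmt4; background 6.08%). DESeq2, run as an alternative, called 135 of 14107 genes (0.957%) and 3 of the 65: Eif4a2, Eif4a1 and Eif2d. In 4 of the 65 (6.15%) the 6 Knockout and 5 Wild-Type libraries did not overlap in CPM: Eif4a2, Eif4a1 and Eif4g2 lay higher and Eif2d lower. The background was 168 genes (1.32%), 0.786% higher and 0.535% lower. TPM, which is not TMM-scaled, moved the median of all genes by 0.23 on the log2 scale toward the Knockout libraries, and that of the 65 by 0.22. On that scale only Eif4a2 of the 65 did not overlap, beside 1.66% of all genes. The count of 8 was 4 without Knockout 1 or without Knockout 2 (3 higher, 1 lower) and 5 without Wild-Type 1 or with offsets for transcript length (4 higher, 1 lower). With the replicate block 4 were higher and 2 lower, and without Wild-Type 4 there were 4 and 6. The 12.4%, 6.31% and 6.08% of all genes hold for the main fit, and no such share is given for these settings. The count of 7 among all genes ran from 0 to 28 over the libraries left out in turn.

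Most of the 65 genes differed little. The median log2 fold change, Knockout over Wild-Type, was -0.01, the same as over all genes tested, with 30 positive and 35 negative. On the TPM scale, which is not TMM-scaled, 61 of the 65 (93.8%) had the higher mean in the Knockout libraries, beside 84.4% of all genes. In 55 of the 65 (84.6%) the TMM-scaled edgeR log2 fold change lay within 0.2 of 0, beside 65.9% of all genes. The median absolute log2 fold change was 0.079, beside 0.131 for all genes. The biological coefficient of variation between replicates had a median of 12.8%, beside 17.7% for all genes. In bulk tissue, fewer cells of a type and less RNA per cell cannot be told apart.

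**Figure D2:**
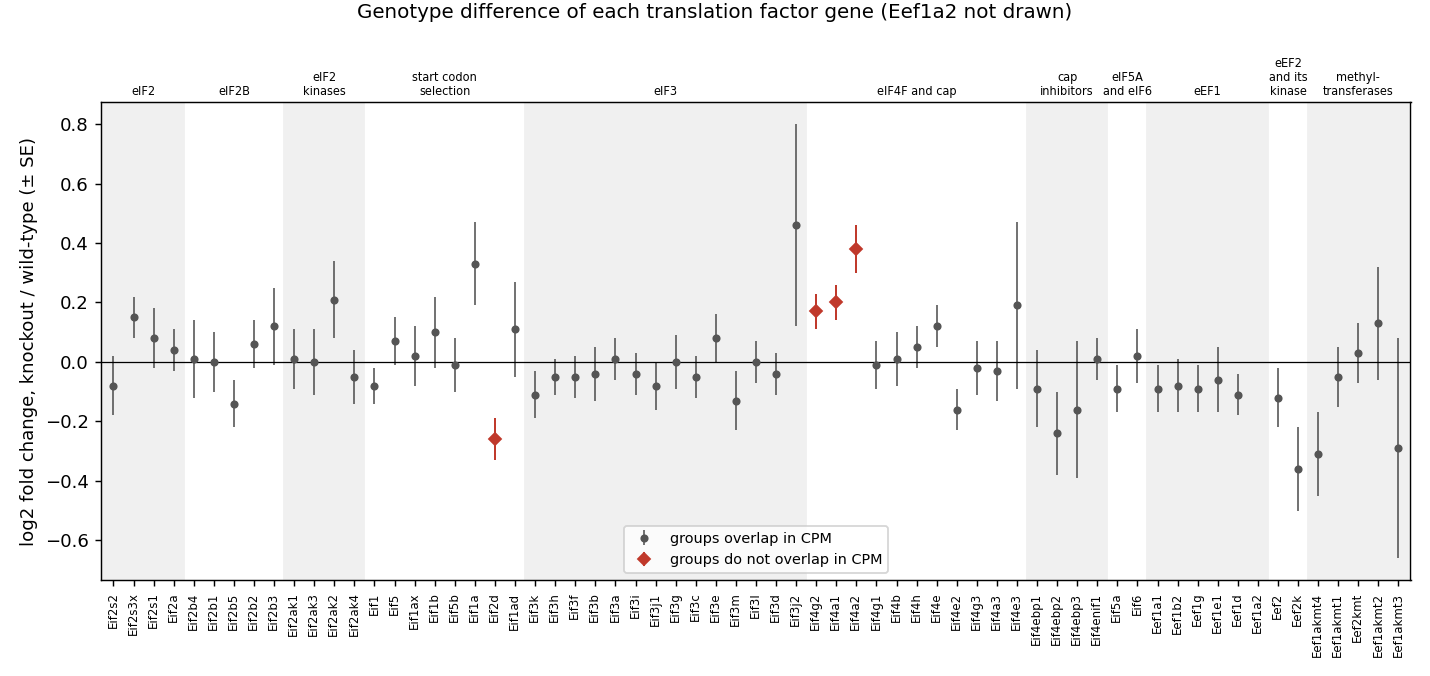
Log2 fold change (edgeR, Knockout over Wild-Type) of 64 of the genes, grouped by role, with bars of ± 1 SE; red diamonds mark the genes whose 2 groups of libraries did not overlap in CPM. Eif4a2 at 0.38, Eif4a1 at 0.20, Eif4g2 at 0.17 and Eif2d at -0.26 are so marked, and Eef1a2, at 1.95 ± 1.47, is left out for scale.

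Of the 11 genes for eIF4F and other cap-binding or helicase factors, 3 were higher and 1 was lower at an unadjusted edgeR p under 0.05 (36.4% in all, beside 12.4% of all genes, 6.31% higher and 6.08% lower). None of them passed edgeR's adjusted threshold, and their median log2 fold change was 0.05. Eif4a2 (chr16:23107444-23114136, plus strand), one of the paralogous helicases that unwind 5′ leaders, measured 86.6, 95.0, 111, 91.7 and 98.7 CPM in Wild-Type libraries 1 to 5. In the Knockout libraries its lowest, median and highest values were 112, 126 and 142 CPM. Every Knockout library lay above every Wild-Type library, the nearest pair being Knockout 5 and Wild-Type 3. On the log2 scale the groups differed by 0.38 ± 0.08 (SE), with an edgeR adjusted p of 0.137. Over the 18 alternatives run, the adjusted p lay between 0.00218, given by DESeq2, and 0.565. On the TPM scale Eif4a2 was at 79.3 ± 9.55 (Knockout, SD, n = 6) against 51.0 ± 5.15 (Wild-Type, n = 5), also without overlap.

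Eif4a1 (chr11:69666936-69672423, minus strand), the major helicase of eIF4F, measured 208, 213, 208, 220 and 225 CPM in the Wild-Type libraries. The Knockout libraries spanned 229, 245 and 271 CPM as lowest, median and highest. These groups were adjacent without overlap in CPM, and in TPM they overlapped at 83.4 to 129 (Knockout) and 64.3 to 91.3 (Wild-Type). The log2 fold change was 0.20 ± 0.06 (edgeR adjusted p = 0.283; DESeq2 adjusted p = 0.0263, the lowest of 18 alternatives, with 0.606 the highest).

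Eif4g2 (chr7:111067750-111083030, minus strand) encodes an eIF4G relative that lacks the eIF4E-binding part and serves initiation without eIF4E. It measured 352, 326, 341, 336 and 320 CPM in the Wild-Type libraries, and 364, 371 and 411 CPM as lowest, median and highest in the Knockout libraries. Again all Knockout libraries were the higher ones in CPM, while in TPM the groups overlapped at 89.1 to 136 (Knockout) and 73.3 to 99.2 (Wild-Type). The log2 fold change was 0.17 ± 0.06 (edgeR adjusted p = 0.321; DESeq2 adjusted p = 0.0630, the lowest of 18 alternatives, with 0.630 the highest).

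The totals of Eif4g2 and Eif4a2 were made up of several transcripts, whose levels are parts of the total and no separate evidence. The main Eif4g2 transcript, of 2721 bases, was at 297 ± 10.6 CPM (Knockout, SD, n = 6) and 263 ± 6.71 (Wild-Type, n = 5), and the libraries did not overlap. For Eif4a2, transcripts of 968 and 1089 bases were higher without overlap, at 13.5 ± 1.1 against 9.63 ± 0.309 CPM and 24.8 ± 4.55 against 17.2 ± 1.43 CPM. The full-length Eif4a2 transcript of 1224 bases overlapped, at 65.7 ± 9.25 against 53.9 ± 9.56 CPM. Among all 65 genes, 23 had at least 2 transcripts that each held 5% or more of the gene's TPM, and in none of those 60 transcripts did the share of the gene separate the groups. Eif4a1 was read from a single main transcript.

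**Figure D3:**
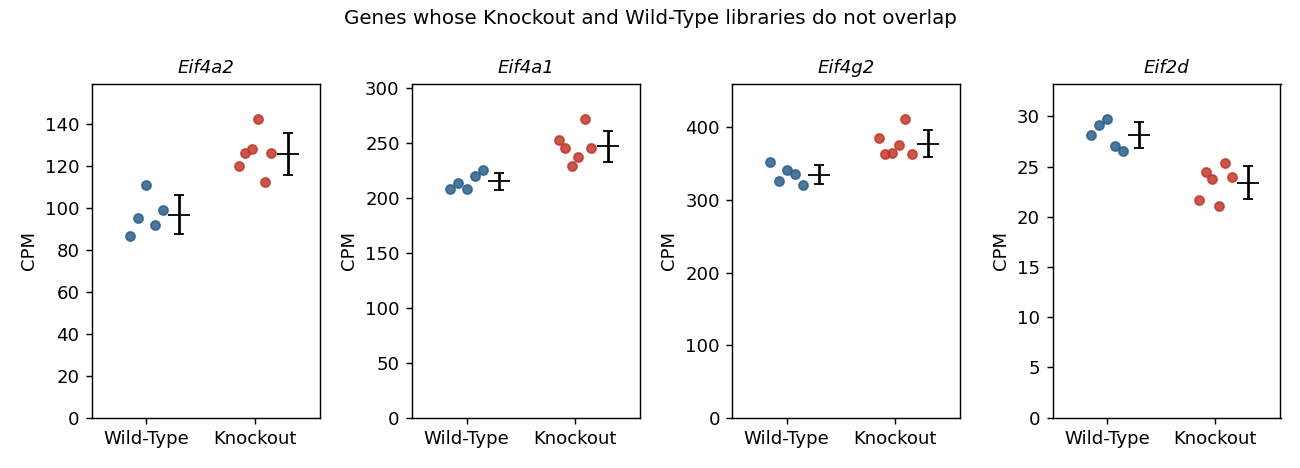
CPM of Eif4a2, Eif4a1, Eif4g2 and Eif2d in each library (points), with the mean and SD of each group as a black bar beside them; axes start at 0. All 6 Knockout libraries lie above the 5 Wild-Type libraries for the first 3 genes and below them for Eif2d.

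The remaining cap genes overlapped between the groups. Eif4e2, a cap-binding relative of eIF4E that acts as a repressor, measured 24.1, 24.4, 24.7, 20.1 and 25.3 CPM in the Wild-Type libraries and 20.2, 21.3 and 22.3 as lowest, median and highest in the Knockout libraries. Wild-Type 4 was the lowest of all 11 and the other Wild-Type libraries lay above the Knockout range, and the log2 fold change was -0.16 ± 0.07 (edgeR adjusted p = 0.385). With offsets for transcript length it was -0.10 (edgeR adjusted p = 0.702), and on the TPM scale the Eif4e2 mean was not lower, at 21.2 ± 2.98 (Knockout, SD, n = 6) against 19.2 ± 1.1 (Wild-Type, n = 5). Eif4e, the cap-binding factor, measured 12.4, 13.8, 13.9, 12.6 and 14.7 CPM in the Wild-Type libraries and 13.5, 14.4 and 16.0 in the Knockout libraries. Its groups overlapped over much of their range, with a log2 fold change of 0.12 ± 0.07 (edgeR adjusted p = 0.547). For Eif4g1, the main scaffold, the log2 fold change was -0.01 ± 0.08, and for the helicase cofactor gene Eif4b it was 0.01 ± 0.09.

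None of the 4 inhibitor genes of the cap complex had an unadjusted edgeR p under 0.05, beside 12.4% of all genes. Eif4ebp1 (chr8:27260329-27276674, plus strand) had 14.5, 20.7 and 24.4 CPM as lowest, median and highest in the Wild-Type libraries and 15.7, 18.0 and 22.0 in the Knockout libraries. The Knockout values fell inside the Wild-Type range, and the log2 fold change was -0.09 ± 0.13 (edgeR adjusted p = 0.828). Eif4ebp2 (chr10:61428491-61452661, minus strand) measured 13.0, 8.48, 10.3, 12.2 and 8.32 CPM in the Wild-Type libraries and 6.77, 9.06 and 10.2 in the Knockout libraries. Wild-Type 1, 3 and 4 were above all Knockout libraries and Wild-Type 2 and 5 among them, with a log2 fold change of -0.24 ± 0.14 (edgeR adjusted p = 0.511). Eif4ebp3, the third of these inhibitors, measured 2.24, 1.80, 1.13, 1.31 and 1.65 CPM in the Wild-Type and 0.999, 1.37 and 2.13 in the Knockout libraries (log2 fold change -0.16 ± 0.23). Its groups overlapped, and 54.7% of its 31-base stretches also occur in the transcripts of another gene model. Eif4enif1, which carries eIF4E into the nucleus, had a log2 fold change of 0.01 ± 0.07.

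Ratios within a library cancel its scaling factor, though not the length correction in TPM, and 3 were compared by an exact two-sided permutation test of the genotype labels, with Benjamini-Hochberg adjustment over the 3. The log2 ratio of Eif4ebp1 to Eif4e TPM was 1.71 ± 0.12 (Knockout, SD, n = 6) and 1.80 ± 0.39 (Wild-Type, n = 5). The difference was -0.09 (exact permutation p = 0.613, adjusted 0.613), and -0.19 from CPM (unadjusted exact permutation p = 0.325). In TPM the level of the inhibitor was above that of its target in every library, from 2.39-fold in Wild-Type 5 to 4.71-fold in Wild-Type 1. That fold rests on the length correction for a listed Eif4ebp1 transcript of 354 bases, and in CPM the 2 genes were at 14.5 and 14.7 in Wild-Type 5. The log2 ratio of Eif4ebp2 to Eif4e was 0.57 ± 0.20 against 0.83 ± 0.41, a difference of -0.25 (exact permutation p = 0.208, adjusted 0.312), and -0.34 from CPM (unadjusted exact permutation p = 0.117). For Eif4a2 to Eif4a1 the log2 ratio was -0.34 ± 0.19 in the Knockout libraries and -0.54 ± 0.12 in the Wild-Type libraries. That difference of 0.20 had an exact permutation p of 0.0779, adjusted 0.234, and Eif4a1 was the more abundant helicase in all 11 libraries. The unadjusted exact permutation p was 0.0238 without Knockout 5 and 0.0429 without Wild-Type 3. Without Wild-Type 1 the Eif4ebp1 difference was 0.02.

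**Figure D4:**
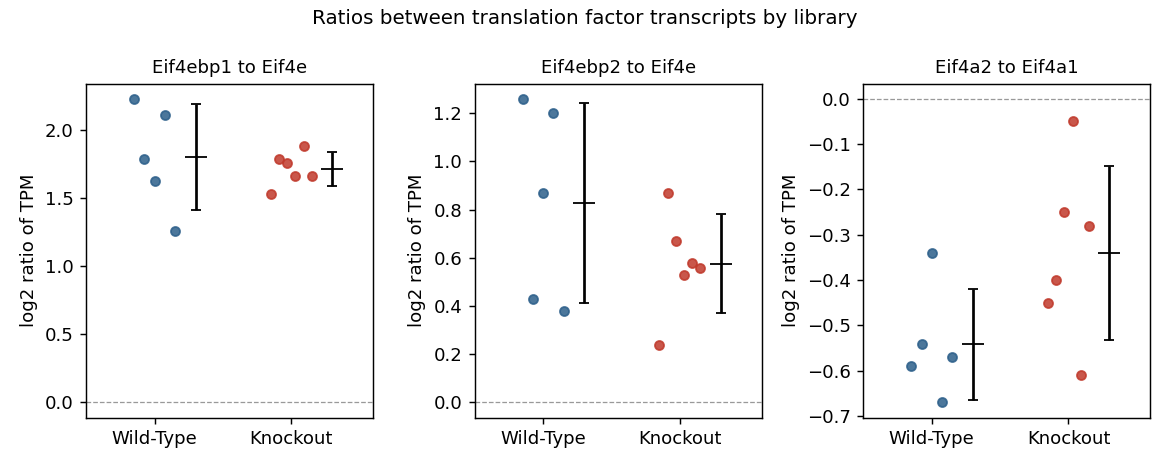
Log2 ratio of TPM between pairs of genes in each library (points), with group mean and SD (black bars); the dashed line marks equal levels. Groups overlap in all 3 ratios; the Wild-Type libraries spread more widely for both inhibitor ratios, and all libraries lie below 0 for Eif4a2 to Eif4a1.

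Of the 8 genes for start codon selection, 1 was higher and 1 lower at an unadjusted edgeR p under 0.05 (25% in all, beside 12.4% of all genes), and none passed edgeR's adjusted threshold. Eif2d (chr1:131153181-131187658, plus strand), whose product can deliver tRNA to the ribosome without eIF2 and helps recycle ribosomes, measured 28.1, 29.1, 29.7, 27.1 and 26.6 CPM in the Wild-Type libraries. The Knockout libraries had 21.1, 23.9 and 25.4 CPM as lowest, median and highest, all below the Wild-Type libraries. The log2 fold change was -0.26 ± 0.07 (edgeR adjusted p = 0.226; DESeq2 adjusted p = 0.0434, the lowest of 18 alternatives, with 0.575 the highest). With offsets for transcript length the value was -0.20 (edgeR adjusted p = 0.560). On the TPM scale, which is not TMM-scaled, the Eif2d mean was not lower: 6.85 ± 1.34 (Knockout, SD, n = 6) against 6.61 ± 0.738 (Wild-Type, n = 5). Its exons overlap Rassf5 on the opposite strand, and the strand setting used in quantification is not given in the sources used here.

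Eif1a, a copy of the scanning factor eIF1A, measured 7.35, 8.06, 6.41, 9.05 and 7.37 CPM in the Wild-Type libraries and 7.0, 9.63 and 12.4 as lowest, median and highest in the Knockout libraries. Knockout 6, the lowest, and Knockout 4 at 8.54 CPM lay within the Wild-Type range, and the log2 fold change was 0.33 ± 0.14 (edgeR adjusted p = 0.366). Of its sequence, 18.1% of the 31-base stretches are shared with Gm5039. Its X-linked relative Eif1ax had a log2 fold change of 0.02 ± 0.10. Eif1 measured 76.9, 82.0, 80.3, 75.8 and 78.5 CPM in the Wild-Type libraries and 69.3, 74.6 and 81.7 in the Knockout libraries. Its groups overlapped, with a log2 fold change of -0.08 ± 0.06 (edgeR adjusted p = 0.631). For Eif5, which triggers GTP hydrolysis on eIF2, and Eif5b, which joins the ribosomal subunits, the log2 fold changes were 0.07 ± 0.08 and -0.01 ± 0.09.

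No gene grouped under eIF2 (Eif2s1, Eif2s2, Eif2s3x and Eif2a), eIF2B, the eIF2 kinases or eIF3 had an unadjusted edgeR p under 0.05. These groups held 27 genes in all, and 12.4% of all genes had such a p. Eif2s1, the subunit whose phosphorylation slows initiation, measured 15.1, 18.0, 15.5, 14.4 and 16.7 CPM in the Wild-Type libraries and 14.9, 16.1 and 19.5 in the Knockout libraries. The ranges nearly coincide, with a log2 fold change of 0.08 ± 0.10 (edgeR adjusted p = 0.777). Eif2s3x, the subunit that binds GTP and tRNA, measured 35.9, 28.5, 36.1, 33.0 and 33.1 CPM in the Wild-Type libraries and 35.3, 36.6 and 41.5 in the Knockout libraries. Wild-Type 1 and 3 lay among the Knockout values and the other Wild-Type libraries below them (log2 fold change 0.15 ± 0.07, edgeR adjusted p = 0.426). The 14 eIF3 genes ran from -0.13 for Eif3m to 0.46 for Eif3j2 on the log2 scale, 4 positive and 10 negative. Among the kinases, Eif2ak2, which senses double-stranded RNA, had 0.21 ± 0.13, and Eif2ak3, the kinase of the endoplasmic reticulum, had 0.00 ± 0.11.

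None of the 6 genes grouped under eEF1, Eef1e1 among them, had an unadjusted edgeR p under 0.05, beside 12.4% of all genes. For the abundant elongation factors and Eif5a the values per library are given in CPM, where the log2 fold changes were negative; on the TPM scale their Knockout means were the higher ones, such as 947 against 822 TPM for Eef1a1 and 251 against 231 for Eef2. Eef1a1 (chr9:78478449-78489151, minus strand) measured 3320, 2903, 2894, 2491 and 2888 CPM in the Wild-Type libraries and 2516, 2698 and 2888 in the Knockout libraries. Apart from the high Wild-Type 1, the groups covered a like range, and the log2 fold change was -0.09 ± 0.08 (edgeR adjusted p = 0.682). Eef2 (chr10:81176631-81182498, plus strand) measured 2187, 1768, 1713, 1579 and 1574 CPM in the Wild-Type libraries and 1391, 1664 and 1708 in the Knockout libraries. Wild-Type 1 was again the highest and Knockout 1 the lowest, with a log2 fold change of -0.12 ± 0.10 (edgeR adjusted p = 0.649). Eef1b2 measured 186, 166, 162, 145 and 199 CPM in the Wild-Type and 139, 162 and 180 in the Knockout libraries (log2 fold change -0.08 ± 0.09, edgeR adjusted p = 0.745). Eef1d, another exchange factor subunit, measured 51.2, 56.4, 51.5, 46.9 and 58.5 CPM in the Wild-Type and 46.7, 49.1 and 49.9 in the Knockout libraries. All Wild-Type libraries but Wild-Type 4 lay above the Knockout values, and the log2 fold change was -0.11 ± 0.07 (edgeR adjusted p = 0.501). Eif5a measured 74.8, 88.0, 74.6, 75.0 and 86.3 CPM in the Wild-Type and 66.9, 72.5 and 85.1 in the Knockout libraries, overlapping, with a log2 fold change of -0.09 ± 0.08 (edgeR adjusted p = 0.704).

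Among these genes, 9 belong to the class whose messenger RNA begins with a tract of pyrimidines and is translated under mTORC1 control. They were Eef1a1, Eef1b2, Eef1d, Eef1g, Eef2, Eif3e, Eif3f, Eif3h and Eif4b. None had an unadjusted edgeR p under 0.05, beside 12.4% of all genes, and the smallest adjusted p was 0.501. Of the 9, 7 were negative and 2 positive, beside 6570 negative and 6146 positive over all genes, with a median log2 fold change of -0.08 and a range of -0.12 to 0.08. On the TPM scale all 9 had the higher mean in the Knockout libraries, as did 84.4% of all genes. The class is defined by translation and not by transcript level, and the values describe the latter.

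Eef2k (chr7:120842831-120907450, plus strand), the kinase that switches eEF2 off, measured 324, 225, 272, 295 and 252 CPM in the Wild-Type libraries. The Knockout libraries had 158, 227 and 261 CPM as lowest, median and highest. Knockout 1 and 2 were the lowest of the 11 libraries, at 158 and 164 CPM, and the others overlapped the Wild-Type range. The same 2 libraries had the lowest sums of the 8 secretory epithelium markers, 340439 and 387501 CPM beside 422484 to 593727 in the others. They also had the highest sums of the 12 skeletal muscle markers, 2798 and 415 CPM beside 2.20 to 282. Wild-Type 1 and 4 came next in that muscle sum, at 282 and 195 CPM, but had the highest Eef2k values, 324 and 295 CPM. Wild-Type 4 also had the next-lowest secretory sum, 422484 CPM. The part of tissue content in the Eef2k values was not tested. The log2 fold change was -0.36 ± 0.14 (edgeR adjusted p = 0.350). Without Knockout 1 it was -0.28. Its exons overlap Gm15774 on the opposite strand. Among the 5 methyltransferase genes of the elongation factors, Eef1akmt4, a lysine methyltransferase of eEF1A, measured 6.90, 9.40, 7.32, 5.31 and 8.04 CPM in the Wild-Type and 4.49, 6.23 and 6.57 in the Knockout libraries. Only Wild-Type 4 lay among the Knockout values (log2 fold change -0.31 ± 0.14, edgeR adjusted p = 0.403). That gene shares 53.3% of its 31-base stretches with Gm49333, so its reads are uncertain. Eef1akmt3, which methylates eEF1A, measured 0.455, 0.627, 0.974, 0.334 and 1.16 CPM in the Wild-Type libraries and 0.341, 0.543 and 0.918 CPM in the Knockout libraries. These groups overlapped and the log2 fold change was -0.29 ± 0.37 (edgeR adjusted p = 0.787).

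Eef1a2 (chr2:181147653-181157014, minus strand) is the form of eEF1A found in muscle and neurons, and here it followed the muscle transcripts of each library. It measured 2.42, 0.334, 0, 1.61 and 0.0702 CPM in the Wild-Type libraries. In the Knockout libraries it measured 14.9, 4.50, 0.165, 0.0301, 0.110 and 0.683 CPM. The 0 reads in Wild-Type 3 allow up to 0.0942 CPM, taking 3 counts as the limit and counting error only. The sum of 12 skeletal muscle markers was 2798, 415, 18.6, 3.25, 9.62 and 52.1 CPM in Knockout libraries 1 to 6 and 282, 28.7, 2.20, 195 and 23.4 CPM in Wild-Type libraries 1 to 5. The 5 libraries with 10 or more Eef1a2 reads were the 5 with the most muscle transcript. The part of muscle tissue in the Eef1a2 values was not tested. The log2 fold change of Eef1a2 between genotypes was 1.95 ± 1.47 (edgeR adjusted p = 0.617), and its biological coefficient of variation was 166%, the largest of the 65. Its log2 fold change ran from 1.62 to 2.73 (the highest without Wild-Type 1) over the 8 libraries whose removal left a value. Without Knockout 1, 2 or 6 there was none, because the gene then failed the filter on low counts.

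**Figure D5:**
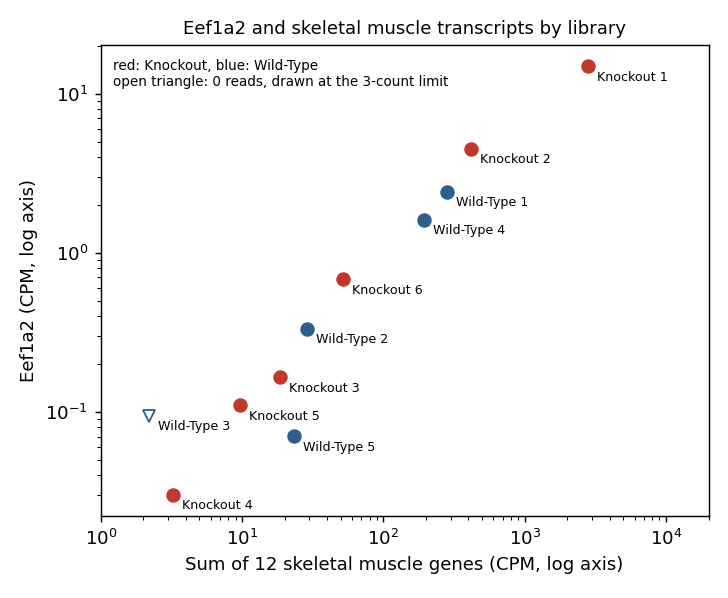
Eef1a2 against the sum of 12 skeletal muscle genes, both in CPM on log axes, 1 point per library; Knockout libraries are red and Wild-Type libraries blue, and the open triangle marks 0 reads, drawn at the limit of 3 counts. Libraries with little muscle transcript have little Eef1a2 in both genotypes, and Knockout 1 is highest in both at 2798 and 14.9 CPM.

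Promoters were searched for the E-box CACGTG, the palindromic site bound by Myc and related factors, which reads the same on both strands. RefSeq promoter windows (GRCm38.p6; 250 bases before to 50 after each start) were matched for 50 of the 65 genes by symbol. The E-box was present in 12 of the 50 (24.0%), beside 8.09% of 27025 genes with a window and 11.5% of 9914 genes past the read rule. It is shown in capitals in the windows of the 3 genes that had both an E-box and an unadjusted edgeR p under 0.05, and of Eif4e and Eef2, which had an E-box without such a p. Eif4e had 2 E-boxes, and the one nearer to the start is shown.
Eif4a1 (chr11:69672595-69672624, minus strand): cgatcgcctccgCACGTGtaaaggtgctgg
Eef2k (chr7:120842788-120842817, plus strand): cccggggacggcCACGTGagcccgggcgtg
Eef1akmt4 (chr16:20611497-20611526, plus strand): tgacggaagttcCACGTGtttgtgtggagc
Eif4e (chr3:138527192-138527221, plus strand): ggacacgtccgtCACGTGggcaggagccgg
Eef2 (chr10:81176576-81176605, plus strand): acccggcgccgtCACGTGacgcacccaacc
Of the 12 genes with an E-box, 3 had an unadjusted edgeR p under 0.05, beside 12.4% of all genes, and none passed edgeR's adjusted threshold. The log2 fold change was 0.20 for Eif4a1, -0.36 for Eef2k and -0.31 for Eef1akmt4. Over the 12, 5 were positive and 7 negative, with a median of -0.03. For each motif a gene counted if any of its windows matched, and the 50 genes had 65 windows. The ETS motif CCGGAAG, searched on both strands, matched in 16 of the 50 genes (32.0%). It matched in 9.93% of all genes with a window and 19.7% of those past the read rule. The C/EBP-ATF composite element TGATGNAA and the cAMP response element TGACGTCA, also searched on both strands, matched in 2 and 1 of the 50 genes. They matched in 4.51% and 2.03% of all genes with a window, and in 2.83% and 3.46% of those past the read rule. Each is a match of letters and not a measured binding site.

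The sum over all 65 genes depended on the scale. In TPM it was 3656 ± 410 (Knockout, SD, n = 6) and 3174 ± 240 (Wild-Type, n = 5). In CPM after TMM scaling it was 8462 ± 311 and 8805 ± 693. The direction thus differs between the scales and the groups overlap on both. Much of the CPM sum came from 2 genes. Eef1a1 had means of 2719 CPM (Knockout) and 2899 CPM (Wild-Type), and Eef2 had means of 1625 and 1764 CPM.

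Beyond the 65, a list of 64 partner genes of translation was read in the same way. At an unadjusted edgeR p under 0.05 stood 7 of them (10.9%, beside 12.4% of all genes), 4 higher and 3 lower, and none passed edgeR's adjusted threshold. Without Wild-Type 4 the count was 11, and with the replicate block it was 7 higher and 0 lower. The 12.4% of all genes holds for the main fit, and no such share is given for these settings. DESeq2 called 1 of the 64, beside 0.957% of all genes. This was Ddx3x, which was also the only one whose groups did not overlap (1.32% of all genes). Ddx3x, a DEAD-box helicase that aids initiation on structured leaders, ranged from 94.1 to 127 CPM (Knockout) and from 69.0 to 86.6 CPM (Wild-Type; log2 fold change 0.40 ± 0.10, edgeR adjusted p = 0.218; DESeq2 adjusted p = 0.0174, the lowest of 18 alternatives, with 0.515 the highest). Bzw1 and Bzw2, mimics of eIF5 that affect start codon choice, had 0.24 ± 0.07 and 0.39 ± 0.15 with overlapping groups. On the lower side were Dhps, which carries out the first step in making the hypusine residue of eIF5A, at -0.30 ± 0.10, the eIF4E-binding Cyfip2 at -1.49 ± 0.62, and Gigyf2, the partner of Eif4e2 in repression, at -0.21 ± 0.09. The 14 genes from Tsc1 through mTORC1 to translation had none under 0.05. Their median log2 fold change was -0.10, with 2 positive and 12 negative, beside 6146 positive and 6570 negative over all genes. TPM, which is not TMM-scaled, moved the median of all genes by 0.23 toward the Knockout libraries, and TPM of the 14 is not given here. The 10 genes of the integrated stress response also had none under 0.05. Atf4, the central transcription factor of that response, ranged from 110 to 155 CPM (Knockout) and from 114 to 142 CPM (Wild-Type).

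Cell type markers were read from the same fit. At an unadjusted edgeR p under 0.05, which 12.4% of all genes had, 6 of 10 adipocyte markers were higher in the Knockout libraries, as were 1 of 5 for myoepithelium and 1 of 8 for secretory epithelium. On the lower side were all 4 B cell markers tested, 2 of 6 for T cells and 1 of 6 for macrophages. None of 12 skeletal muscle and 5 endothelial markers had such a p, and no marker passed the adjusted threshold. By sign alone, 12 of 12 muscle, 5 of 5 myoepithelial, 8 of 10 adipocyte and 4 of 5 endothelial markers were positive. Negative were 6 of 6 T cell, 4 of 4 B cell, 5 of 6 macrophage and 6 of 8 secretory markers. Over all genes 6146 were positive and 6570 negative. The markers of a list were read from the same libraries, so their signs are not independent. The muscle sums had medians of 35.3 (Knockout) and 28.7 CPM (Wild-Type), with Knockout 1 and 2 at 2798 and 415 CPM. The B cell sums of Wild-Type 1 and 3, 1.93 and 4.71 CPM, lay within the Knockout range of 0.844 to 14.9 CPM. The part of cell composition in the values of Eif4a2, Eif4a1, Eif4g2 and Eif2d was not tested.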

How the data were processed

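Each of the 11 libraries came with a deposited transcript table in the layout of Salmon. The submitters' processing notes name Salmon 1.3.0, DESeq2 1.28.1 and the build GRCm38.p6, and the labels' protocols a directional library kit. The index, its annotation, bias options and strand setting are not given in the sources used here. Per the file headers the authors' columns are transcript length and effective length in bases, TPM, and the estimated count of reads. Of 224 transcripts of these genes, 223 have a coding sequence of the same version in GENCODE M21, and 94.6% of those have a listed length within 3 bases above it, so values mostly reflect coding sequence. The authors' table of normalized gene values was not used here.

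Each gene's deposited estimated counts were added up over its transcripts in GENCODE M21 (57452 of 58204 transcripts; the others held 0.195% to 0.265% of reads) and rounded. Libraries held 25817975 to 37894237 estimated reads. edgeR 4.0.16 (R 4.3.3; TMM, filterByExpr, robust quasi-likelihood fit, genotype only) tested 12716 genes, all 65 among them, with Benjamini-Hochberg adjustment over all. Levels between genes used the authors' TPM, summed per gene. On simulated counts of 12558 genes with this design the fit recovered 19.7% of genes changed by 0.5 on the log2 scale, 70.8% at 1 and 92.3% at 2. DESeq2 1.42.0 (default independent filtering), RLE size factors, TMM without the 20 most abundant genes, other filters, length offsets, a replicate block, TPM in place of CPM for the overlap of groups, CPM in place of TPM for the ratios, and leaving out each library were alternatives.

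Genes and lists were chosen with earlier results of these data known. Values per library are given for the genes Eif4ebp1, Eif4ebp2, Eif4ebp3, Eif4e, Eif2s1, Eef1a1, Eef1a2 and Eef2, the 10 smallest p, the 5 highest TPM, any gene whose groups did not overlap, and those next to the read minimum. The 3 partner genes with the smallest p in each direction were named.

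The replicate numbers in the titles were tested for pairing. Correlations between same-numbered libraries were -0.22 to 0.19, so they were not treated as pairs.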

Additional observations from a re-analysis of the deposited data

Results flagged for a closer look

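In each group, the highest and lowest library was compared with its nearest neighbour by Dixon's criterion, over 50 sets of values. This marked 4 values, where chance gives about 1 in 20, or 2.5. Eef1a2 in Knockout 1 measured 14.9 CPM, above 0.0301 to 4.50 CPM in the other Knockout libraries, and that library also had the most skeletal muscle transcript. Eef2 in Knockout 1 measured 1391 CPM, below 1615 to 1708 CPM in the others. Eif2s3x in Knockout 5 measured 41.5 CPM, above 35.3 to 36.9 CPM in the others. Eif4e2 in Wild-Type 4 measured 20.1 CPM, below 24.1 to 25.3 CPM in the other Wild-Type libraries. The cause of these values was not tested.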

How the results depend on the processing

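DESeq2 called 135 genes and 3 of the 65 where edgeR called 7 and 0, and the cause was not tested. With the replicate block edgeR called 0 genes and none of the 65, and 6 of the 65 had an unadjusted edgeR p under 0.05. The log2 ratio differences were then -0.08, -0.25 and 0.19 (exact permutation within pairs p = 0.875, 0.375 and 0.125), in the order of the report. That permutation used the 5 same-numbered pairs, without Knockout 6, and with so few pairs it cannot give a p under 0.05. Length offsets gave 5 of the 65 with an unadjusted p under 0.05, in place of 8. Leaving out 1 library at a time, edgeR called 0 (without Knockout 3 or 6) to 28 genes (without Knockout 2) and 0 of the 65 each time; it called 2 without Knockout 1 or Wild-Type 3, 13 without Wild-Type 1 or 5 and 14 without Wild-Type 4. The count of the 65 with an unadjusted p under 0.05 was 4 (without Knockout 1 or 2) to 10 (without Wild-Type 4), and 5 without Wild-Type 1. For the partner lists it was 5 (without Knockout 1, among others) to 11 (without Wild-Type 4). For these counts at an unadjusted edgeR p, the share over all genes is given for the main fit only. The median log2 fold change of the 65 was -0.044 to 0.001. The difference in log2 ratio of Eif4ebp1 to Eif4e was -0.23 to 0.02, turning sign only without Wild-Type 1 (0.02, exact permutation p = 0.886), as did the log2 fold change of Eif4ebp1 (0.0041, beside -0.18 without Wild-Type 5). For Eif4ebp2 to Eif4e it was -0.37 to -0.15. For Eif4a2 to Eif4a1 it was 0.14 to 0.25, with an unadjusted exact permutation p of 0.0238 without Knockout 5 and 0.0429 without Wild-Type 3. Over 393 values of named genes under other settings, 1 changed sign and 3 passed the threshold, all 3 with DESeq2. The 4 genes whose groups did not overlap were the same 4 with RLE size factors and with TMM without the 20 most abundant genes. The shares over all genes were then 1.33% and 1.31%. With TPM in place of CPM the count was 1, Eif4a2, beside 1.66% of all genes. Without Knockout 1 the count was 4, beside 1.76% of all genes (1.32% with all libraries), and leaving out a library cannot lower it. For this count of genes without overlap, these 4 alternatives were chosen after seeing the data. The simulated recovery limits what can be read from a gene that was not called.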
